A study of Mus musculus with 2 samples.

Results

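The cells described here are the amacrine and horizontal cell precursors of the mouse eye at e13.5 of embryonic development, chosen by the transcripts of 9 genes of that lineage. A barcode, the tag that stands for 1 cell, was taken when it passed the quality limits (200 or more detected genes and at most 15% mitochondrial UMIs), held at least 1 UMI in 3 or more of Ptf1a, Prdm13, Lhx1, Gad2, Slc32a1, Onecut1, Prox1, Tfap2a and Tfap2b, with Ptf1a, Prdm13 or Lhx1 among them, and held no UMI of the ganglion cell gene Pou4f2 or of the mesenchyme genes Twist1 and Col3a1. A UMI (unique molecular identifier) counts 1 captured transcript molecule. The rule found 88 precursors among 11893 passing barcodes, 37 of 5519 in the control library and 51 of 6374 in the mutant library. Because measured counts of the 9 genes chose the cells, the levels of those genes below are a description and support nothing about the cells.

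The study asked which eye cells are affected by loss of Myrf, a membrane-bound transcription factor, and sequenced single cells of dissected eye cups, with cornea, lens and optic nerve removed, from Myrf fl/fl embryos (control) and Rx>cre Myrf fl/fl embryos (mutant). Both genotypes carried 2 floxed Myrf alleles, and the mutant also carried a Cre recombinase transgene driven by Rx, an early eye field gene active in the lineage of both the neural retina and the pigment epithelium. The controls carried no Cre, so the transgene and the loss of Myrf cannot be told apart. Each genotype was 1 library made from 3 pooled samples, so no spread between animals could be measured, no test between genotypes was possible, and every interval below covers counting error only.

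Amacrine and horizontal cells are the inhibitory interneurons of the retina: horizontal cells act at the photoreceptor synapse, amacrine cells at the synapses onto ganglion cells. Both arise from progenitors in which Foxn4 and Rorb act upstream of Ptf1a, a basic helix-loop-helix (bHLH) transcription factor that is needed for both fates and is expressed around the last division. Prdm13 and the AP-2 factors Tfap2a and Tfap2b act downstream of Ptf1a, Lhx1, Prox1 and the Onecut factors are used by horizontal cells, and Gad2 and Slc32a1 provide GABA synthesis and vesicular loading. Atoh7, another bHLH factor, is best known for making progenitors competent to become ganglion cells, and is also expressed in cells that go on to other early fates.

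The genes on which the results turn are Ptf1a, which defined nearly all of the precursors, and Atoh7, whose level differed between the libraries. The sequences before their starts are shown because both encode bHLH factors, which bind the E-box CANNTG. Capitals mark CANNTG. The bases before Ptf1a lie at chr2:19445413-19445662 (GRCm38.p6, plus strand; RefSeq).
Ptf1a, bases before the start: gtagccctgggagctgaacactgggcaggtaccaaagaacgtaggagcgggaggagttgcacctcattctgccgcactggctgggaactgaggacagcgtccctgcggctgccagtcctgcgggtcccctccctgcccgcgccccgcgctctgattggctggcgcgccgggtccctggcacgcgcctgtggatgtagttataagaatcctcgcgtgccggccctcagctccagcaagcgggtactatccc
For Atoh7, the RefSeq start lies 134 bases inside the gene as the GENCODE annotation draws it (chr10:63099651-63101279, plus strand), so the 116 bases before the GENCODE start are shown, at chr10:63099535-63099650, and after them a stretch of 16 bases at chr10:63099718-63099733 that begins 67 bases before the RefSeq start.
Atoh7, bases before the start: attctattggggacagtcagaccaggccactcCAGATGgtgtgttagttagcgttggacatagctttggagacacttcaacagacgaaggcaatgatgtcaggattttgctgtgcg
Atoh7, stretch with a pair of CACCTG: CACCTGccacCACCTG
The motif, which reads alike on both strands, occurred 0 times in the 250 bases before the RefSeq start of Ptf1a and of Prdm13, 1 time before Tfap2b and 3 times before Atoh7, where a pair of CACCTG stood 4 bases apart. Of 32851 such windows in the RefSeq table, 66.2% held at least 1, with a median of 1 a window. These matches describe letters in a window and were not tied to any binding data.

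The marker genes of the label are mostly genes of the rule, so the presence of Ptf1a and Prdm13 was fixed by the selection and does not check the label. Transcripts of both Ptf1a and Prdm13 were present in 36 of 37 control and 43 of 51 mutant precursors (97.3% and 84.3%), Ptf1a without Prdm13 in 0 and 5, and Prdm13 without Ptf1a in 1 and 3. Every cell therefore entered through Ptf1a or Prdm13, and none through Lhx1 alone. Lhx1, the gene that sets horizontal cells apart from amacrine cells, was found in 2 control and 6 mutant precursors, and over all passing barcodes in only 4 and 11. Calb1, a calcium-binding protein of mature mouse horizontal cells, had 0 UMIs in either library, which allows up to 7.39 CPM (UMIs of a gene scaled to a library total of 1000000) in the control and 5.77 CPM in the mutant precursors. Onecut3 had 1 and 12 UMIs, in 1 and 6 cells. The cells are named here by that rule, and a committed horizontal part could not be separated at this depth.

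The precursors were sampled about as deeply as the other barcodes. Control precursors held a median of 10541 UMIs (range 2478 to 30871) and mutant precursors a median of 9685 (1446 to 38173), against 11377 and 11178.5 over all passing barcodes, and their median mitochondrial share was 4.72% and 4.98%. The libraries held 63483835 and 75228861 UMIs over 6039 and 6754 barcodes, of which 515 and 371 exceeded the mitochondrial limit and 5 and 9 had under 200 genes. Myrf had 0 UMIs in the precursors of either library, which bears the same limits of 7.39 and 5.77 CPM, and 4.04 CPM in the other barcodes of the control against 1.52 CPM in those of the mutant. Haemoglobin transcripts, which come from blood cells, took 60988 CPM of the other barcodes in the control and 117950 CPM in the mutant, and 409 and 998 CPM of the precursors. The libraries shared 72 barcode sequences, none of them a precursor. With blood and immune genes not counted, 1 control and 2 mutant precursors held 5 or more UMIs of genes of other cell types. Of the 8 blood and immune genes, 17 control and 46 mutant precursors held 5 or more UMIs.

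Precursors made up 0.670% of passing barcodes in the control (exact Clopper-Pearson 95% interval 0.472 to 0.923%) and 0.800% in the mutant (0.596 to 1.05%). The mutant share was 0.130 points higher, with an interval of −0.187 to 0.440 points that holds 0. As a share of the barcodes in 4 retinal classes (these precursors with the ganglion, photoreceptor and progenitor classes defined below) they were 2.08% (1.47 to 2.86%) and 2.53% (1.89 to 3.32%), a difference of 0.455 points (−0.525 to 1.42). A difference in the number of precursors between the genotypes was not detectable with 88 cells, and the spread between animals is not in these intervals.

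The edge of the rule was populated. Of the precursors, 12 control and 17 mutant cells held exactly 3 of the 9 genes, the least the rule admits, while 1 and 4 held 8, and none held all 9. Just outside it, 9 control and 20 mutant barcodes held 2 of the genes with Ptf1a, Prdm13 or Lhx1 among them. These near cells were as deep as the precursors (medians 10977 and 9968.5 UMIs) and had Ptf1a in 8 and 15 cells, Prdm13 in 6 and 13, and Onecut2, which the rule did not use, in 6 and 14. Ptf1a was also present in 46 control and 51 mutant passing barcodes outside the precursors. These barcodes held 326 and 256 UMIs of Ptf1a, against 368 and 418 in the precursors, so the rule left out much of it. Of these, 16 and 23 held a single UMI of it, 12 and 14 held a mesenchyme gene and 9 and 7 held Pou4f2. Ptf1a was the only rule gene in 24 and 23 of them, and 8 and 15 were near cells. A barcode can be in more than 1 of these counts. Before the limits on Pou4f2, Twist1 and Col3a1, the count of marker genes was met by 43 control and 60 mutant barcodes.

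Ptf1a (chr2:19445663-19447501, plus strand) reached 906 CPM in the control precursors (exact Poisson 95% interval 816 to 1004) and 804 CPM in the mutant precursors (729 to 885). Other passing barcodes held 5.23 and 3.45 CPM of it. Per cell, control cells had a median of 10 UMIs (0 to 21) and mutant cells one of 6 (0 to 37), and the ranges overlapped. Prdm13 (chr4:21677480-21685963, minus strand), a zinc finger repressor, was alike in both libraries at 426 CPM (365 to 494) and 421 CPM (367 to 481), against 1.27 and 1.16 CPM elsewhere. The other rule genes were sparser. Tfap2b stood at 293 CPM (243 to 351) and 325 CPM (278 to 378), but it was also present in 49.2% and 50.8% of barcodes with Twist1 and Col3a1, the mesenchyme cells of the samples, which the rule leaves out. Prox1 was at 86.2 and 78.8 CPM, Tfap2a at 51.7 and 57.7 CPM, Onecut1 at 54.2 and 42.3 CPM, Gad2 at 49.2 and 30.8 CPM and Slc32a1 at 27.1 and 36.5 CPM. Gad2 was not particular to the precursors among retinal cells, since the ganglion class held 34.0 and 34.1 CPM.

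**Figure D1:**
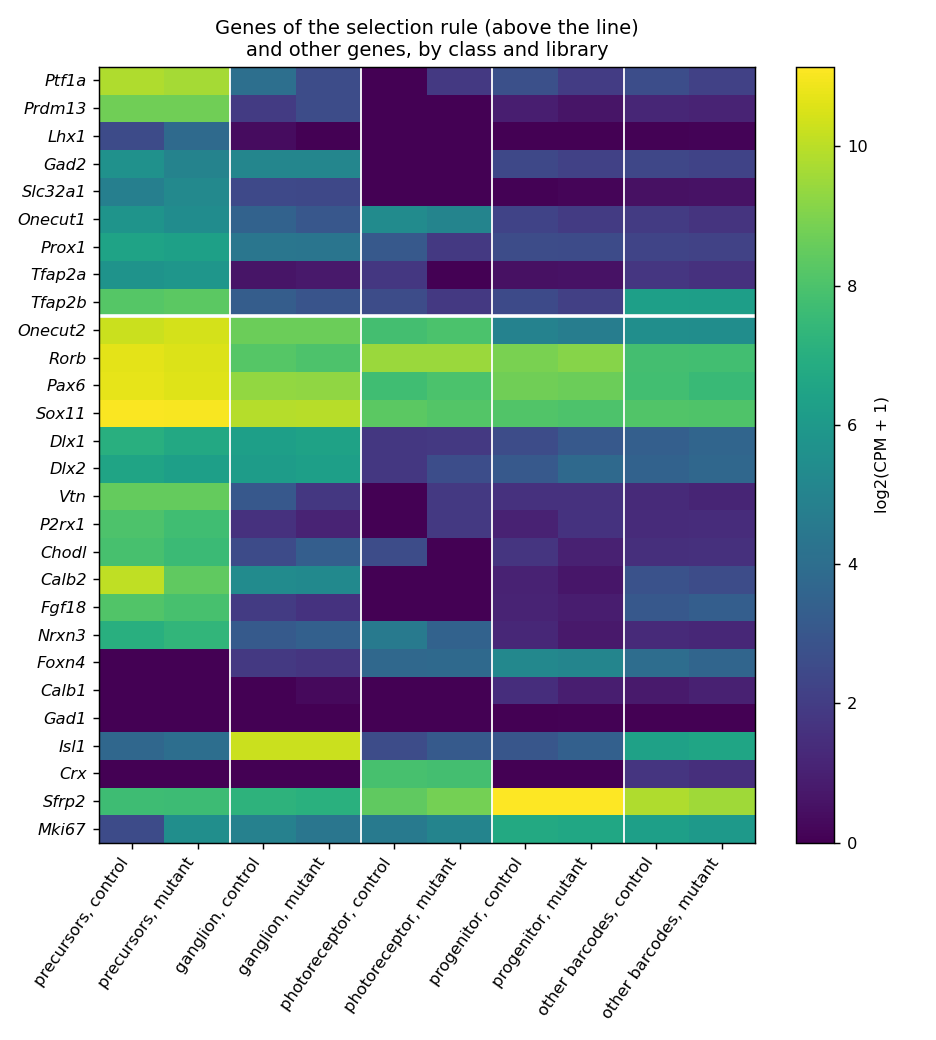
Heat map of log2(CPM + 1) for the 9 rule genes and other genes (rows) in the precursors, the 3 retinal classes and all other barcodes of each library (columns), 1 library per genotype. Ptf1a and Prdm13 are strong in the precursor columns, where the rule placed them, and Tfap2b is also seen in the column of other barcodes, at 77.4 and 74.5 CPM.

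Genes outside the rule were then compared between the precursors and all other barcodes, and with each of 3 retinal classes chosen by markers. The ganglion class (230 control and 320 mutant barcodes) held Pou4f2 with at least 2 further ganglion genes, the photoreceptor class (29 and 33) held Crx with a further photoreceptor gene, and the progenitor class (1483 and 1608) held at least 3 of 6 progenitor genes, Sfrp2 and Fgf15 among them, with no Pou4f2 or Crx. Of 13407 genes with 50 or more UMIs in each library, 7.51% were at least 2-fold higher in precursors than in the other barcodes of both libraries (1007 genes) and 9.87% at least 2-fold lower (1323 genes). Of 2375 genes that could be compared with all 3 classes, 52 were at least 2-fold higher over every class in both libraries (2.19%). The 7 rule genes with enough UMIs were all among the higher genes over the other barcodes, as the rule placed them. Cells chosen by their transcripts must differ from the rest, so these counts describe the cells and test nothing.

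Onecut2, a partner of Onecut1 in horizontal and other early born neurons, was not used by the rule. It was found in all 37 control precursors and in 49 of 51 mutant ones, at 1226 CPM (1121 to 1339) and 1363 CPM (1265 to 1468), with per-cell medians of 12 UMIs (3 to 35) and 14 (0 to 30). The ganglion class held 403 and 400 CPM of it and the other barcodes 44.4 and 43.6 CPM. Thinned to 3000 UMIs a cell, 91.7% of control and 93.6% of mutant precursors still held Onecut2, against 62.7% and 64.2% of the ganglion class, 51.7% and 55.2% of the photoreceptor class and 0.7% and 1.5% of mesenchyme barcodes.

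The genes that stood highest over the other barcodes were mostly not transcription factors. Vtn, which encodes the matrix glycoprotein vitronectin, stood at 364 CPM (308 to 428) and 362 CPM (312 to 417) and at 1.52 and 1.20 CPM in the other barcodes, and was found in 30 and 38 precursors. P2rx1, an ATP-gated ion channel, was at 261 and 208 CPM, and Chodl, a membrane lectin, at 236 and 192 CPM, each under 2 CPM elsewhere. Slc1a6, a glutamate transporter, was at 170 and 202 CPM, and Nrxn3, a presynaptic adhesion protein, at 130 CPM (97.7 to 171) and 162 CPM (129 to 200) in 23 and 26 cells. Fgf18, a secreted growth factor, was at 273 and 235 CPM against 7.27 and 8.91 CPM elsewhere, and Cldn5, a tight junction protein best known from endothelium, at 244 and 252 CPM. Pomc, the precursor of the melanocortin peptides, was at 222 and 263 CPM in 11 and 17 cells, of which 6 held 93.3% and 89.8% of its UMIs. The keratin gene Krt73 (227 and 123 CPM), Pgbd5 (236 and 185 CPM), Ndrg1 (165 and 144 CPM), Nupr1 (222 and 269 CPM), Chgb (158 and 185 CPM) and Dnah7a (207 and 237 CPM) complete the genes named for their height over the other barcodes or the retinal classes, with Mpped2 (667 and 587 CPM) and Calb2, described below.

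Of 8 genes that act upstream of or beside Ptf1a, 6 were at least 2-fold higher in precursors than in the other barcodes of both libraries and 1 was lower, where 7.51% of all genes were higher and 9.87% lower. Their median log2 ratio was 2.50 against 0.01 over all genes compared. Rorb, a nuclear receptor needed for horizontal and amacrine fates, stood at 1672 and 1512 CPM, against 484 and 558 CPM in the progenitor class. Pax6, an eye field factor kept by these neurons, stood at 1699 and 1544 CPM against 221 and 186 CPM in the other barcodes, and the SoxC factors Sox11 and Sox4, which act in newborn neurons, at 2154 and 2123 CPM and at 1645 and 1771 CPM. The lower gene was Foxn4, which stood at 35.6 and 32.7 CPM in the progenitor class and at 0 UMIs in the precursors of both libraries.

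Genes of neuronal structure were high in the precursors and cell cycle genes low. Of 14 genes of neuronal structure, 12 were at least 2-fold higher than in the other barcodes (median 1.87; 7.51% of all genes), and against the progenitor class 10 of 11 were, where the background was 8.35% of 10562 genes. Tubb3, a neuronal tubulin, stood at 4471 and 4004 CPM and Stmn2, a growth cone protein, at 2701 and 2702 CPM, against 5434 and 5706 CPM and 3555 and 3489 CPM in the ganglion class. All 10 G2/M genes were at least 2-fold lower than in the progenitor class (median −2.86), 8 of 10 S phase genes were (median −2.03) and 8 of 15 progenitor genes were (median −1.84), with a background of 8.52% of genes lower. Mki67, a proliferation antigen, was at 4.92 and 44.2 CPM against 107 and 98.1 CPM in the progenitor class, and Top2a, a topoisomerase of dividing cells, at 17.2 and 75.0 CPM against 266 and 279 CPM. The mutant values rested on few cells. At most 10 of the 23 mutant UMIs of Mki67 and 19 of the 39 of Top2a lay in 1 cell. The deepest mutant precursor, which also held pigment cell genes, had 7 and 15 of them. Sfrp2, a secreted Wnt modulator of progenitors, stood at 202 and 200 CPM against 2257 and 2262 CPM, and both this gap and the count of progenitor genes were partly fixed by the choice of the class on Sfrp2, Fgf15 and other progenitor genes. Single precursors held 61 of the 82 control UMIs and 66 of the 104 mutant UMIs of Sfrp2, with per-cell medians of 0 and 1. Of 7 genes of cell cycle exit, Btg1 and Gadd45g were higher and Cdkn1a lower than in the other barcodes.

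Genes of the neighbouring fates were lower than in the classes that those genes defined. All 8 ganglion genes compared with the ganglion class were at least 2-fold lower in both libraries (median −4.00; background 2.46% of 6701 genes), as were all 4 photoreceptor genes compared with the photoreceptor class (median −5.61; background 1.8% of 2383 genes). Both counts are largely set by the choice of cells and support nothing: the ganglion class was defined by Pou4f2, which barred a barcode from the precursors, with further ganglion genes, and the photoreceptor class by Crx with a further photoreceptor gene, which are among the genes counted. Isl1, a LIM factor of ganglion cells and of some amacrine cells, stood at 12.3 and 15.4 CPM against 1220 and 1218 CPM, and Crx, the photoreceptor homeobox gene, had 0 UMIs in both libraries. The counts that follow are against the other barcodes, where 7.51% of all genes were at least 2-fold higher and 9.87% lower. Of 15 genes of amacrine subtypes and differentiation, 11 could be compared with the other barcodes, and Barhl2, Dlx1, Dlx2 and Elavl3 were higher while Isl1 and Nr4a2 were lower. Barhl2, which acts in amacrine subtype choice, stood at 36.9 and 48.1 CPM. Of 8 horizontal genes 3 could be compared, and only Onecut2 was higher than in the other barcodes. Gad1, which makes GABA beside Gad2, had 0 UMIs, and Gad2 or Slc32a1, both rule genes, were found in 17 control and 22 mutant precursors. Of the guidance list, 5 of 12 genes were higher than in the other barcodes (Robo2, Slit1, Slit2, Dcc and Plxna2) and 2 lower, and of the adhesion list 4 of 10 were higher, Pcdh17, Nrxn3 and Sdk2 among them. Genes of other tissues gave no higher member: 8 of 8 mesenchyme genes, 7 of 8 blood and immune genes, 3 of 5 vessel genes, 3 of 4 surface ectoderm and lens genes, and 2 of 7 pigment cell genes were lower. The rule barred barcodes with Twist1 or Col3a1, so the mesenchyme count was largely set by it. None of the 4 Schwann and crest genes was called either way. Of 9 dissociation response genes 5 were lower and Dusp1 higher, and of 9 p53 targets 2 were lower and Trp53inp1 higher.

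The mutant precursors were then set against the control precursors. Of 2848 genes with 50 or more UMIs over both, 24 were at least 2-fold lower in the mutant (0.843%) and 22 at least 2-fold higher (0.772%), with a median log2 ratio of −0.02. Of the 9 rule genes, 5 had enough UMIs (Ptf1a, Prdm13, Prox1, Tfap2a and Tfap2b), and none of them passed 2-fold. None of 9 neuronal structure genes passed 2-fold (median −0.01), nor did any of 5 cell cycle exit genes, 4 amacrine genes or 5 adhesion genes. Ptf1a differed by −0.17 (−0.38 to 0.03) on the log2 scale, Prdm13 by −0.02 (−0.31 to 0.28) and Onecut2, at 1226 and 1363 CPM, by 0.15. Cells were chosen by the rule genes in both libraries alike, so their ratio is a description.

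**Figure D2:**
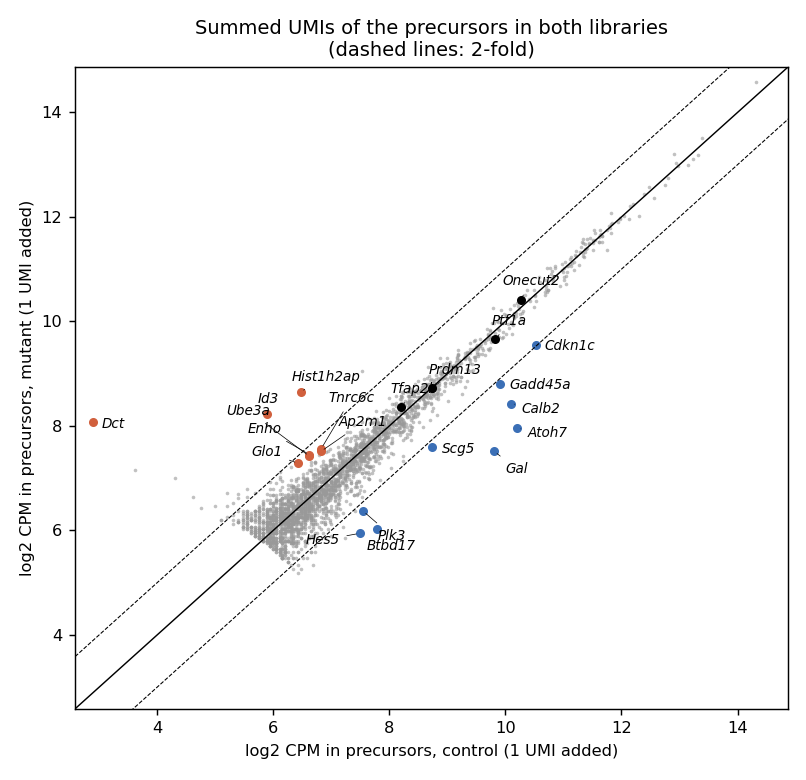
Level of each gene in the precursors of the control library (x axis, log2 CPM) against the mutant library (y axis, log2 CPM), with dashed lines at 2-fold and named genes labelled, 1 library per genotype. Most genes lie between the lines, and Gal, Atoh7 and Calb2 lie below them.

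Atoh7, Gal, Calb2 and Gadd45a were among the genes that stood lower in the mutant precursors. Atoh7 (chr10:63099651-63101279, plus strand), with a pair of E-boxes before its RefSeq start, had 478 UMIs in the control precursors, 1177 CPM (1074 to 1287), and 128 in the mutant precursors, 246 CPM (205 to 293). The log2 ratio was −2.25 (−2.55 to −1.97). In the same libraries the ratio was −0.04 (−0.08 to −0.01) in the ganglion class, −0.20 (−0.31 to −0.10) in the photoreceptor class and 0.23 (0.20 to 0.26) in the progenitor class, and none of these counting intervals met that of the precursors. The intervals take each UMI as independent and leave out the spread between cells, so their not meeting decides nothing between the classes. Whether the ratios differ beyond the spread between cells was not tested, and beyond that between animals could not be tested. Atoh7 was found in 23 of 37 control and 27 of 51 mutant precursors, and the 6 cells with most of it accounted for 71.8% of its control UMIs and 60.2% of its mutant UMIs. Its level therefore rested mostly on these cells in each library.

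Gal (chr19:3409915-3414544, minus strand), which encodes the neuropeptide galanin, had 363 UMIs in the control precursors, 894 CPM (804 to 991), and 94 in the mutant precursors, 181 CPM (146 to 221). Its log2 ratio was −2.29 (−2.65 to −1.97), against 0.27 in the ganglion class and −0.72 in the progenitor class. It was found in 14 and 11 cells, and 6 cells held 91.5% of it in each library. Calb2 (chr8:110137502-110168210, minus strand), the calcium-binding protein calretinin of many amacrine cells, reached 1088 CPM (989 to 1195) among control precursors and 342 CPM (294 to 396) among mutant ones, a log2 ratio of −1.66 (−1.93 to −1.41), with −0.07 in the ganglion class. It was found in 16 control and 24 mutant cells, so the share of cells with it, 43.2% and 47.1%, did not go the way of its level.

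Gadd45a, a growth arrest gene of cells leaving the cycle, was found in most cells of both libraries. It stood at 958 CPM in the control precursors, where 35 of 37 cells held it, and at 446 CPM in the mutant precursors, where 35 of 51 did, a log2 ratio of −1.10. The ratio for Gadd45a was 0.04 in both the ganglion and the progenitor class and −0.83 (−1.17 to −0.51) in the photoreceptor class, whose interval met that of the precursors (−1.34 to −0.86). Btbd17 stood at 219 and 63.5 CPM (−1.76; 0.40 in the ganglion class) and Hes5, a Notch effector of progenitors, at 177 and 59.6 CPM (−1.55), in 14 and 6 cells, with 28 of the 72 control UMIs of Hes5 in 1 cell. Plk3, a stress-responsive kinase, was lower by the same measure (−1.18). When 4 of the 9 rule genes were required, none of these 4 genes passed 2-fold, with log2 ratios of −0.85 for Gadd45a, −0.47 for Btbd17, −0.22 for Hes5 and −0.62 for Plk3. Gadd45a and Plk3 also missed it when Pou4f2 was not limited (−0.92 and −0.70) and when the rule was applied to cells thinned to 3000 UMIs (−0.29 and −0.77). Scg5, a secretory granule protein, was lower at −1.16, but also at −0.99, −1.25 and −0.85 in the ganglion, photoreceptor and progenitor classes and at −1.02 over the other barcodes, so its lower level ran through the whole library.

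**Figure D3:**
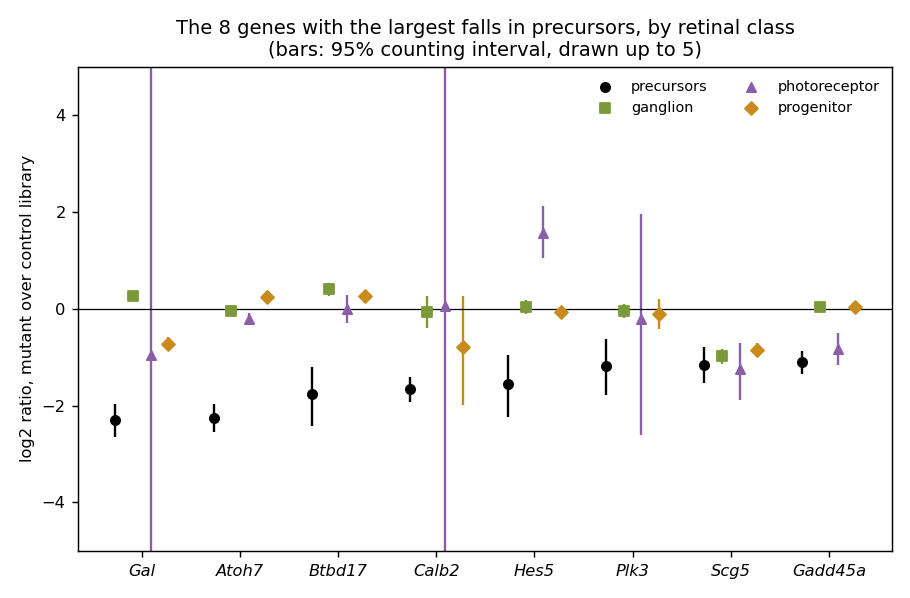
Log2 ratio of mutant over control (y axis; bars are 95% counting intervals, drawn up to 5) for the 8 genes with the largest lower values in the precursors, shown for the precursors and for the ganglion, photoreceptor and progenitor classes, 1 library per genotype. Atoh7 lies at −2.25 in the precursors and between −0.20 and 0.23 in the 3 classes, while Scg5 is below 0 in all of them.

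Of 12 neurogenic genes, which act in cells leaving the progenitor state, 7 could be compared between the libraries. Atoh7, Mfng and Gadd45a were at least 2-fold lower in the mutant and 1 gene was at least 2-fold higher, with a median of −0.34. Over all 2848 genes compared, 0.843% were lower and 0.772% higher, with a median of −0.02. Atoh7 and Gadd45a had already been named for their lower level in these cells, so the count is no separate result. Of 10 progenitor genes compared, Hes5 was lower and Id3 higher (median −0.16), and both had likewise been named by size. Cdkn1c, a cyclin-dependent kinase inhibitor, stood at 1470 and 750 CPM, a log2 ratio of −0.97 that falls just short of 2-fold. A single control cell held 145 of its 597 UMIs, and without the top cell of each library the ratio was −0.76.

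Several of the genes that stood higher in the mutant rested on 1 cell. Of the 139 UMIs of Dct, a melanin synthesis enzyme, 132 lay in 1 mutant precursor, the deepest of all at 38173 UMIs, against 2 in all control precursors. The same cell held 78 of 155 UMIs of Id3, a helix-loop-helix inhibitor of progenitors, and 163 of 208 of the histone gene Hist1h2ap, together with 63 of Pmel, 8 of Sox10, 7 of Mki67 and 15 of Top2a. It met the rule with exactly 3 genes, Ptf1a at 1 UMI, Tfap2a and Tfap2b, and held 0 UMIs of Onecut2. Precursors holding 5 or more UMIs of other cell types, blood not counted, were then left out, this cell among them. The log2 ratio went from 5.19 to 2.54 for Dct, from 2.34 to 1.42 for Id3 and from 2.18 to 0.09 for Hist1h2ap. The control cell left out held the 2 control UMIs of Dct. The 2.54 therefore set the few mutant UMIs left against 0 and rested on the UMI added to each side. Dct then lay under the number of UMIs needed for a comparison. The other higher genes were below 2-fold: Glo1 (0.85), Enho (0.83), Ube3a (0.80), Tnrc6c (0.73) and Ap2m1 (0.69). In 2 of 4 blood genes compared (Hba-a2 and Hbb-y) the mutant was at least 2-fold higher, in the direction of the haemoglobin level of the whole library. It was also higher in 2 of 3 G2/M genes (Cenpf and Birc5). Over all genes compared, 0.772% were at least 2-fold higher. Single mutant cells held 26 of the 39 mutant UMIs of Cenpf and 24 of the 45 of Birc5, and 6 cells held 97.4% of the one and 100% of the other.

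**Figure D4:**
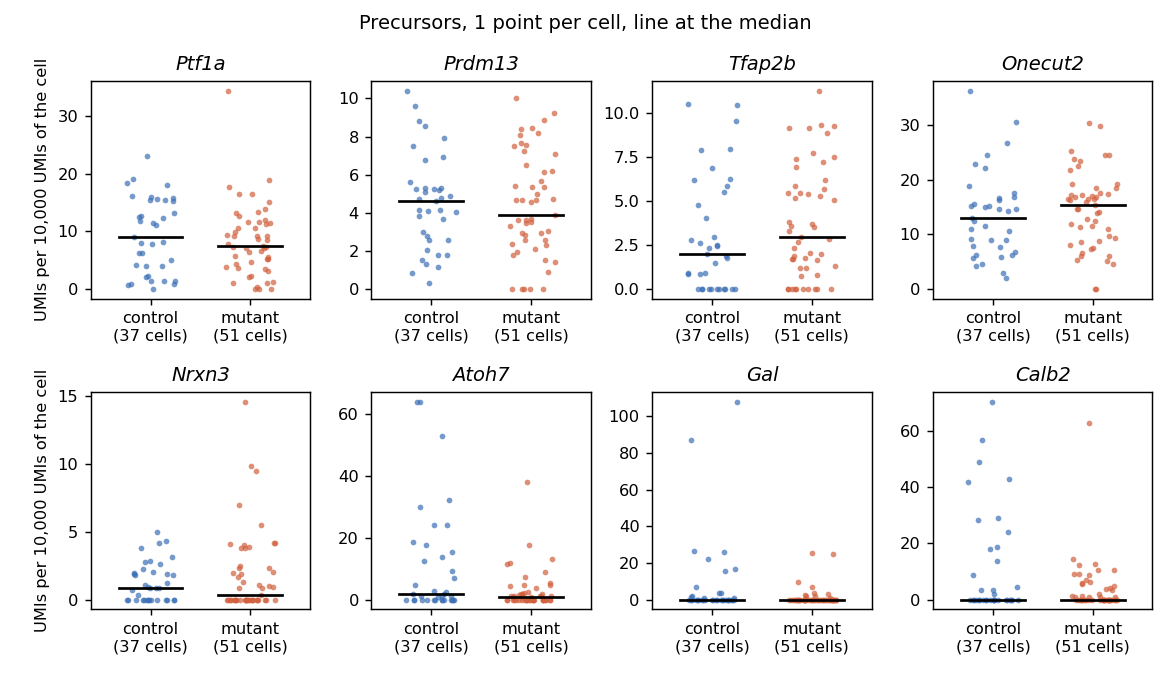
UMIs per 10,000 in each precursor (y axis; 1 point per cell) for 8 genes in the control (37 cells) and mutant (51 cells) library, 1 library per genotype. Ptf1a, Prdm13 and Onecut2 spread over like ranges in both, while for Atoh7, Gal and Calb2 the 6 cells with most UMIs held 60.2% or more of them in each library.

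The precursors ranged from no Atoh7 to much of it. In the control 14 cells held 0 UMIs, 8 held 1 to 4 and 15 held 5 or more, and in the mutant 24, 18 and 9 did. Cells with 5 or more made up 40.5% of control precursors (24.8 to 57.9%) and 17.6% of mutant precursors (8.40 to 30.9%), a difference of −22.9 points (Newcombe 95% interval −40.8 to −3.91). Atoh7 was followed for its lower level in these same mutant cells, so this interval is a description and tests nothing. It takes the cells of 1 library per genotype as independent. The groups are cut from a count, not types, and 3 control and 4 mutant cells lay at 4 or 5 UMIs. Median depth differed little between them, with 10170 to 11333 UMIs for control groups and 9167 to 10752 for mutant groups. Any UMI of Atoh7 was found in 62.2% and 52.9% of precursors, and, after thinning to 3000 UMIs a cell (36 and 47 cells, with 1 and 4 too shallow), in 52.8% (35.5 to 69.6%) and 34.0% (20.9 to 49.3%). Mesenchyme barcodes, with median depths of 14046 and 13375 UMIs, held it in 22.2% and 20.6%, and in 7.6% and 6.3% after thinning, below the precursors at both depths.

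The groups had different partners in both libraries. Most Gal lay in the cells with 5 or more Atoh7 UMIs, at 2142 CPM in the control and 907 CPM in the mutant, against 51.4 CPM and 0 UMIs (up to 15.9 CPM) in cells with no Atoh7. The 3 control cells with most Gal (123, 102 and 39 UMIs) held 73, 75 and 80 UMIs of Atoh7 and none of Calb2, and the 2 such mutant cells (34 and 28 UMIs of Gal) held 12 and 15 of Atoh7 and none of Calb2. Gadd45a went from 316 CPM in cells with no Atoh7 to 1798 CPM in cells with 5 or more in the control, and from 267 to 961 CPM in the mutant. Btbd17 followed the same order, with 7.34, 48.0 and 501 CPM over the control groups and 21.6, 56.0 and 186 CPM over the mutant groups. Dlx2, a homeobox gene of several interneuron lineages, was at 22.0 and 199 CPM in the lowest and highest control groups and at 30.2 and 219 CPM in the mutant ones. Within the highest group the mutant precursors still held less Gal and Gadd45a than the control ones. The lower totals in the mutant went with both fewer such cells and lower values in them. That group has no upper limit and was not matched for Atoh7, with 462 UMIs of it in 15 control cells and 96 in 9 mutant cells. Gal, Btbd17 and Gadd45a were also found in the ganglion class, whose barcodes were deeper (medians 15674 and 14419.5 UMIs). Gal was present in 38.7% of its control and 39.7% of its mutant barcodes, Btbd17 in 67.4% and 67.5%, and Gadd45a in 88.3% and 84.4%. In the precursors Gal was present in 37.8% and 21.6%, Btbd17 in 40.5% and 27.5%, and Gadd45a in 94.6% and 68.6%. Whether the cells with 5 or more Atoh7 UMIs resemble ganglion cells was not tested.

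Tfap2b and Nrxn3 had the opposite order. Tfap2b, which acts after Ptf1a, went from 455 to 139 CPM over the control groups and from 349 to 229 CPM over the mutant groups. It is a rule gene, so its order is tied to the selection and is a description only. In the control it was found in 5 of 12 cells with exactly 3 rule genes and 21 of 25 with 4 or more. In the mutant it was found in 10 of 17 and 31 of 34. Nrxn3 went from 286 to 36.2 CPM in the control and from 250 CPM to 0 UMIs in the mutant (up to 40.3 CPM), and Slc1a6 from 293 to 66.4 CPM and from 289 to 10.9 CPM. Calb2 stood at 2722, 365 and 199 CPM over the control groups and at 422, 402 and 10.9 CPM over the mutant groups. It was lower in the mutant in the cells with no Atoh7, which held most of its control UMIs. The 199 CPM rested mainly on 1 control cell at the cut, with 5 UMIs of Atoh7 and 30 of Calb2. That cell also held 5 or more UMIs of other cell types. The control cells with most Calb2 held 80, 66, 50 and 44 UMIs of it, and the mutant ones 49, 22, 14 and 12. Cdkn1c went with it, at 2744 and 819 CPM in the cells without Atoh7 of the control and the mutant. The control cell that held 145 of the 597 control UMIs of Cdkn1c was in this group and raised its value. Ptf1a gave no common order, at 1079, 903 and 766 CPM in the control and 690, 784 and 1136 CPM in the mutant. Onecut2 stayed between 1038 and 1418 CPM in all 6 groups.

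**Figure D5:**
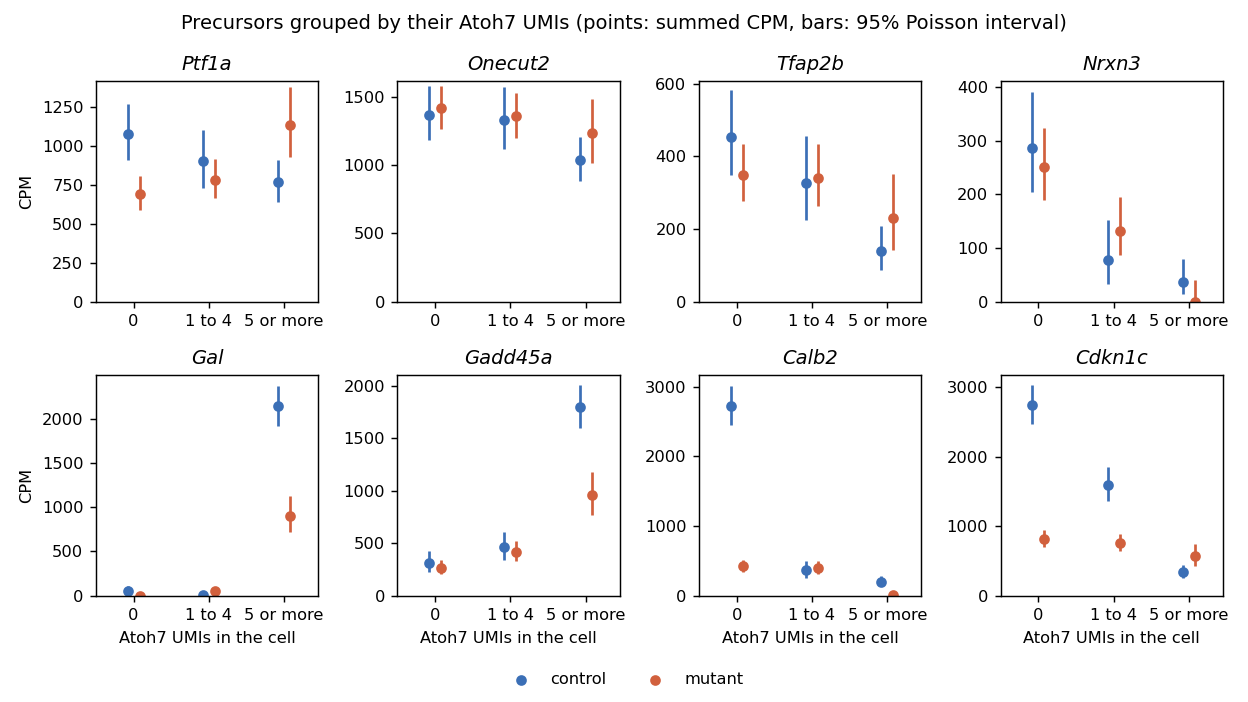
CPM (y axis; bars are exact Poisson 95% intervals) of 8 genes in precursors with 0, 1 to 4 and 5 or more Atoh7 UMIs (x axis), for the control (14, 8 and 15 cells) and the mutant (24, 18 and 9 cells) library. Gal and Gadd45a are highest in the group with 5 or more, Nrxn3 and Tfap2b in the group with 0, and Calb2 in the control group with 0.

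Across cells the same relations can be given by rank, as a description over 37 control and 51 mutant precursors that share a library and differ in depth. Spearman's rho of Atoh7 was highest in both with Tpd52 (0.56 and 0.64), Gal (0.52 and 0.56), Igfbp2 (0.59 and 0.51), Btbd17 (0.74 and 0.51) and Plk3 (0.53 and 0.50). It was most negative with Nrxn3 (−0.77 and −0.49), Auts2 (−0.50 and −0.47), Pou3f1 (−0.51 and −0.47) and Slc1a6 (−0.61 and −0.46). With Onecut2 it was −0.322 and −0.335, and with Tfap2b, a rule gene whose values are tied to the selection, −0.544 and −0.266. With Ptf1a it was −0.14 and 0.06, and between Ptf1a and Prdm13 0.31 and 0.16. Calb2 ran with Slc1a6 (0.76 and 0.50) and Nrxn3 (0.72 and 0.47).

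The difference in Atoh7 and Gal depended on how many rule genes a cell carried. Among the precursors with exactly 3 of the 9, the control held 355 of its 478 Atoh7 UMIs in 12 cells (2778 CPM) and the mutant 53 in 17 cells (335 CPM). Among those with 4 or more, Atoh7 was at 442 and 207 CPM, still lower in the mutant. Gal turned: 347 of its 363 control UMIs lay in the cells with exactly 3 rule genes, and in cells with 4 or more it stood at 57.5 CPM in the control and 221 CPM in the mutant. Calb2 was the reverse, with 0 and 6 UMIs in cells with exactly 3 rule genes and 1588 and 475 CPM in the rest. Cdkn1c stood at 2037 and 984 CPM in the cells with 4 or more, the control cell with 145 UMIs of it among them. Most Atoh7 and Gal UMIs of the control thus lay in cells that only just met the rule, and all of its Calb2 in cells further inside it.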

How the data were processed

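The authors prepared 1 droplet 3′ library per genotype and deposited a matrix of raw UMI counts per gene for the barcodes called as cells. The submitters' processing notes name Cell Ranger 7.1.0, Seurat 4.1.1 and mm10; whether intronic reads were counted is not given in the sources used here. Counts were used as deposited (31053 features). The members and gene lists were chosen with earlier results of these data known.

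UMIs were summed per library and class and scaled to CPM with exact Poisson 95% intervals. Shares have exact Clopper-Pearson intervals, differences of shares Newcombe intervals, and log2 ratios (with 1 UMI added) exact conditional binomial intervals, computed with SciPy 1.17.1. Against larger classes, the UMI added to the precursors was matched by the same CPM in the class, which departs from the design as first written. Genes with 50 or more UMIs were compared, and called at 2-fold, in both libraries for precursors against other cells. Named genes were the 12 highest over other barcodes and the 12 highest over the 3 classes, the 8 largest ratios each way between libraries among genes with 100 or more UMIs (leaving out genes of haemoglobin, ribosomal proteins, mitochondria and the sex chromosomes' Xist, Tsix and Y genes), and the genes of the lists; Cdkn1c and the genes tied to Atoh7 were followed further after their values were seen. A planned comparison of precursors with Lhx1 alone could not be made, as there were 0. Doublets were called with Scrublet (scanpy 1.11.5) for an alternative only. No interval covers the spread between animals. Some members of the lists are counted but not reported here by name. The scripts were tested on simulated data.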

Additional observations from a re-analysis of the deposited data

Results flagged for a closer look

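In 3 genes the precursors lay on one side of the other barcodes in the control library and on the opposite side in the mutant library. With 1 library per genotype the difference was not tested. The log2 ratio of Atoh7 over the other barcodes was 0.7566 in the control and −1.435 in the mutant. That of Cdkn1c was 0.6894 and −0.3104. That of Dct was −4.299 and 1.95, and the mutant value rested on the single cell that held 132 of the 139 UMIs.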

How the results depend on the processing

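No paired analysis was possible because each genotype was 1 library, and no replicate could be left out. Of the main results recomputed under the alternatives, 103 values moved by no more than their counting error or 1.5 times in a count, and 28 moved further; of single genes, 356 stayed, 61 moved and 4 reversed. Requiring 4 of the 9 rule genes (25 and 34 cells) gave shares of 0.453% and 0.533%, 14 lower and 11 higher genes, both Ptf1a and Prdm13 in 100% of control cells, and a reversed log2 ratio for Gal (1.87). Applied to cells thinned to 3000 UMIs (20 and 29 cells), the rule gave a mutant share of 0.574%, 12 lower and 8 higher genes, a neurogenic median of −0.12 and both genes in 100% and 96.6% of cells. A mitochondrial limit of 5% (24 and 26 cells) left 12 higher genes, a neurogenic median of −1.11 and 34 genes higher over the 3 classes. Barcodes of at most 2000 UMIs gave shares of 0% and 0.180%, and no ratios. Of the 4 retinal classes the shares were 2.08% and 2.53%, a difference of 0.455 points. Genes with 20 UMIs or more gave 105 lower, 148 higher and 103 over the 3 classes, and genes with 100 or more gave 9, 4 and 31, with a neurogenic median of −0.72. With 1 UMI added on both sides, 2133 genes were higher and 851 lower over the other barcodes. The Hist1h2ap ratio reversed to −0.10 without barcodes over 20000 UMIs, to −0.046 with 4 rule genes and to −0.86 with thinning. The cause of these shifts was not tested, apart from the cell counts given. Over all alternatives, Atoh7 ranged from −2.87 to −1.08, Calb2 from −1.86 to −1.26, Gadd45a from −1.76 to −0.29, Btbd17 from −2.77 to −0.47, Plk3 from −1.62 to −0.62 and Hes5 from −2.25 to −0.22. Scrublet marked 68 control and 65 mutant barcodes (1.23% and 1.02%), 1 and 0 of them precursors. Settings without precursors holding UMIs of other cell types (blood not counted) and with the matched UMI were added after the data were seen. Depth limits the sparse genes: Lhx1, Onecut3 and Gad2 lay under the 50 UMIs needed for a comparison between the libraries.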
